A study of Mus musculus with 12 samples.

Results

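Megalin and cubilin are the large receptors by which the proximal tubule of the kidney takes filtered proteins back from the urine. Megalin spans the membrane and carries its own internalization signals. Cubilin has no membrane anchor and reaches the surface together with amnionless. Adaptors link the receptors to clathrin-coated pits, endosomes are acidified to release the cargo, and the receptors are recycled while the cargo goes to lysosomes. After muscle breakdown, filtered myoglobin enters the tubule cell by this route. The RNAs described here are those of 8 genes listed by symbol: the receptors Lrp2 (megalin) and Cubn, the cubilin partner Amn, the adaptor Dab2, the receptor chaperone Lrpap1, the endosomal chloride-proton exchanger Clcn5, the phosphoinositide phosphatase Ocrl and the recycling GTPase Rab11a. All 8 were found among the 32047 genes of the deposited table and all 8 passed the filter on low counts, the lowest count of any of them in any library being 992.

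Poly(A) RNA of mouse kidney was sequenced in 12 libraries, 4 in each of 3 groups. The AKI_A_FGF23_R176QR179Q group, called the FGF23 variant group here, overexpressed a mutated form of FGF23, a bone hormone that acts on the kidney, and acute kidney injury was induced by the rhabdomyolysis (RM) model 3 weeks later. The AKI_A_mcherry group, called the mCherry group, carries the name of a red fluorescent protein and of the same injury, and the group labelled NC carries neither. The labels give no strain, sex, age, dose, vector or promoter, no time between injury and collection, and do not state that each library is a different animal, so the p-values rest on how far these libraries differ, which may be technical. No uninjured group with either construct was analysed here, so the mCherry group differs from NC by injury and by anything else it received. Library totals were 61687187 to 69271791 counts in the FGF23 variant group, 55324078 to 65730739 in the mCherry group and 61591826 to 70638283 in NC. Fgf23 itself had 320 to 517 counts per library in the FGF23 variant group and 0 in each library of the mCherry group and of NC. All 22 proximal tubule markers were detected in every group. Skeletal muscle markers summed to at most 0.759 CPM in the FGF23 variant group, 0.839 CPM in the mCherry group and 1.37 CPM in NC.

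Values are CPM, counts scaled to a common library size after correcting each library by its TMM factor (a factor that evens out differences in RNA composition), and each comparison was tested with edgeR's quasi-likelihood test over all genes at an adjusted p of 0.05. With the FGF23 variant after injury, against mCherry after injury, 2 of the 8 genes were higher (Lrp2 and Cubn), 1 was lower (Rab11a) and 5 did not pass. Over all 18824 genes tested, 23.1% passed, 11.7% higher and 11.4% lower. That count of 4347 genes was 2410 without FGF23 variant library 1, 2853 without library 2 and 2718 without library 5. In the mCherry group against NC, 4 were lower (Lrp2, Cubn, Lrpap1 and Amn), 1 was higher (Rab11a) and 3 did not pass, where 53.1% of 18724 genes passed, 26.0% lower and 27.2% higher. In the FGF23 variant group against NC, 5 were lower (Lrp2, Cubn, Lrpap1, Amn and Dab2), 1 was higher (Rab11a) and 2 did not pass, where 42.3% of 19005 genes passed, 20.6% lower and 21.7% higher. The median log2 fold change of the 8 genes was 0.08, -0.54 and -1.03 in these comparisons, beside 0.00837, -0.00264 and 0.0109 over all genes tested. The comparisons share libraries, so they are not independent of each other. Scaled by library totals in place of TMM factors, the median of all genes moved to 0.212, 0.121 and 0.344, and the calls over all genes split into 4060 higher and 1035 lower, 5828 higher and 3958 lower, and 7829 higher and 2096 lower. With TMM factors they were 2199 higher and 2148 lower, 5088 higher and 4859 lower, and 4123 higher and 3912 lower.

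**Figure D1:**
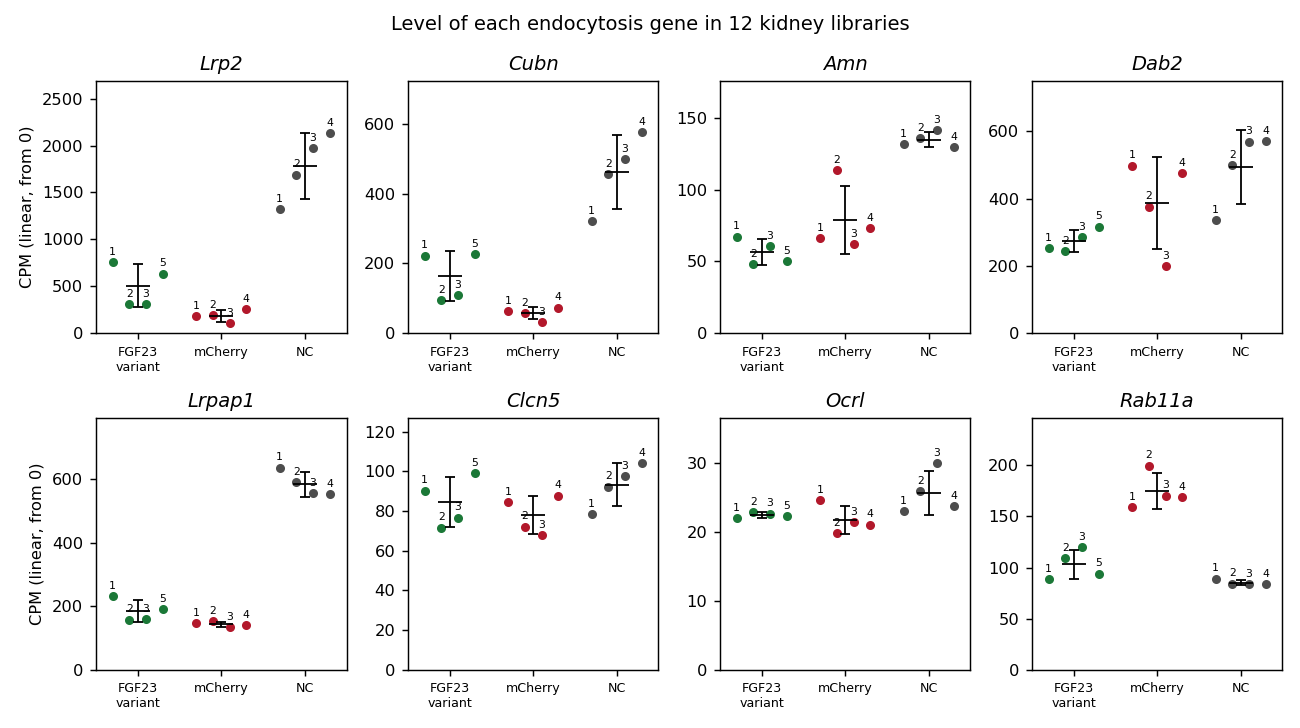
CPM of each of the 8 genes (vertical axis, linear from 0) in every library, by group. Points are libraries with their replicate numbers, horizontal bars are means and error bars are 1 SD (n = 4). Lrp2 and Cubn are highest in NC and lowest in the mCherry group, Amn and Dab2 have their lowest mean in the FGF23 variant group, and Rab11a is highest in the mCherry group.

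Lrp2 encodes megalin, a member of the lipoprotein receptor family that binds albumin, vitamin carriers, myoglobin and many drugs. Lrp2 had 758, 312, 307 and 634 CPM in libraries 1, 2, 3 and 5 of the FGF23 variant group. The mCherry libraries 1 to 4 had 183, 188, 106 and 255 CPM, and the NC libraries 1326, 1691, 1977 and 2137 CPM. No library of any group overlapped with another group, and within the FGF23 variant group libraries 1 and 5 stood far above libraries 2 and 3. Lrp2 rose 2.75-fold in the FGF23 variant group against mCherry (log2 1.46 ± 0.34, SE, adjusted p = 0.0140). It fell 9.59-fold in the mCherry group against NC (log2 -3.26 ± 0.27, adjusted p = 3.62e-06) and was 3.50-fold lower in the FGF23 variant group than in NC (log2 -1.81 ± 0.30, adjusted p = 7.47e-04). As a share of the NC mean, Lrp2 stood at 28.2% in the FGF23 variant group and at 10.3% in the mCherry group.

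Cubn encodes cubilin, which binds albumin, transferrin, apolipoprotein A-I and the complex of intrinsic factor with vitamin B12. It had 222, 93.4, 108 and 226 CPM in libraries 1, 2, 3 and 5 of the FGF23 variant group. The mCherry libraries had 61.8, 58.1, 32.1 and 72.7 CPM, and the NC libraries 322, 455, 498 and 575 CPM. The groups did not overlap, and libraries 1 and 5 of the FGF23 variant group were again the highest of their group. Cubn was 2.90-fold higher with the FGF23 variant than with mCherry (log2 1.53 ± 0.33, adjusted p = 0.0104), 8.10-fold lower in the mCherry group than in NC (log2 -3.02 ± 0.26, adjusted p = 5.79e-06), and 2.81-fold lower in the FGF23 variant group than in NC (log2 -1.49 ± 0.30, adjusted p = 0.00252).

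Both receptor RNAs varied widely within the injured groups. In the FGF23 variant group the highest library had 2.47 times the Lrp2 CPM of the lowest and 2.42 times the Cubn CPM, and in the mCherry group 2.40 and 2.26 times. The SD of log2 CPM in the FGF23 variant group was 0.680 for Lrp2 and 0.675 for Cubn, above that of 98.6% and 98.5% of 11564 genes with a mean of at least 5 CPM. The injured tubule markers (10 genes, among them Havcr1) summed to 7348, 19742, 27287 and 16681 CPM in libraries 1, 2, 3 and 5 of the FGF23 variant group, so the libraries with the most Lrp2 had the lowest sums. They summed to 37359 to 41795 CPM in the mCherry group and to 980.2 to 1123 CPM in NC. Of these 10 markers 8 were lower and 0 higher with the FGF23 variant than with mCherry, where 11.4% of all genes tested were lower. In the mCherry group against NC 9 were higher and 0 lower, where 27.2% of all genes were higher. The part of these markers in the receptor values was not tested.

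The proximal tubule markers, which exclude the 8 genes, fell with the receptors in both injured groups against NC but were divided between the injured groups. In the FGF23 variant group 8 of 22 were higher and 2 lower than in mCherry, and 12 did not pass. All 22 were lower in the mCherry group than in NC, and 21 were lower in the FGF23 variant group than in NC. Over all genes tested, 11.7% were higher and 11.4% lower with the FGF23 variant than with mCherry. In the mCherry group against NC 27.2% were higher and 26.0% lower, and 20.6% were lower in the FGF23 variant group than in NC. The CPM of the 22 markers summed to 10911, 5592, 6968 and 9754 in libraries 1, 2, 3 and 5 of the FGF23 variant group, to 8922 to 20287 in the mCherry group and to 52605 to 59099.7 in NC. Kap, an androgen-dependent kidney gene, made up 20.5% of that sum in the FGF23 variant group, 67.3% in the mCherry group and 37.9% in NC. In whole kidney, fewer proximal tubule cells and less RNA per cell cannot be told apart. Markers of other cell types also differed between the FGF23 variant group and mCherry. Of 6 thick ascending limb markers 5 were higher and 0 lower with the FGF23 variant (median log2 change 1.30), and 0 were higher and 5 lower in the mCherry group than in NC (median -1.88). Of 5 distal convoluted tubule markers 3 were higher and 0 lower with the FGF23 variant than with mCherry (median 0.83), and of 8 endothelial markers 4 were higher and 0 lower (median 0.58). In the mCherry group against NC 3 of the distal convoluted tubule markers were lower (median -0.76) and 2 of the endothelial markers (median -0.39), with 0 higher in either list. Their part in the receptor values was not tested.

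Amn encodes amnionless, the membrane anchor without which cubilin does not reach the cell surface. It had 67.4, 48.1, 60.5 and 50.2 CPM in the FGF23 variant libraries. The mCherry libraries had 66.4, 114, 62.2 and 73.4 CPM, and the NC libraries 132, 136, 142 and 129.9 CPM. Both injured groups lay below every NC library and overlapped with each other, with mCherry library 2 highest among them. Amn fell 1.68-fold in the mCherry group against NC (log2 -0.75 ± 0.18, adjusted p = 0.00496) and 2.36-fold in the FGF23 variant group against NC (log2 -1.24 ± 0.11, adjusted p = 1.53e-05). Between the FGF23 variant and mCherry groups the difference, log2 -0.48 ± 0.19, did not pass (adjusted p = 0.0964).

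The sequences before the start of Lrp2, Cubn and Amn are shown because these receptor complex genes gave unlike patterns, Lrp2 and Cubn close to each other and Amn apart. They are the 250 bases before the annotated start in RefSeq on mouse build GRCm38.p6, which is not the GRCm39 build named in the submitters' processing notes. They run 5′ to 3′ on the gene's strand, with CG dinucleotides in capitals.
Lrp2, chr2:69586030-69586279, minus strand: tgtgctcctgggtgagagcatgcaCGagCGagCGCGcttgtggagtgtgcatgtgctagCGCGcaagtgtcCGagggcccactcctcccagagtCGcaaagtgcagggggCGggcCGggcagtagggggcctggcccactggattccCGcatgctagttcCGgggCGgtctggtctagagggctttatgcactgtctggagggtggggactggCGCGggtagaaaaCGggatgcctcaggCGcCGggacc
Cubn, chr2:13491877-13492126, minus strand: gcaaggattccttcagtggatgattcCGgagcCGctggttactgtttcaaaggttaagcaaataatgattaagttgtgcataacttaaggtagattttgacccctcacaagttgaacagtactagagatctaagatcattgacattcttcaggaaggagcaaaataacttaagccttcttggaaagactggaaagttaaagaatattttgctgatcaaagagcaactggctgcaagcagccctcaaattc
Amn, chr12:111270846-111271095, plus strand: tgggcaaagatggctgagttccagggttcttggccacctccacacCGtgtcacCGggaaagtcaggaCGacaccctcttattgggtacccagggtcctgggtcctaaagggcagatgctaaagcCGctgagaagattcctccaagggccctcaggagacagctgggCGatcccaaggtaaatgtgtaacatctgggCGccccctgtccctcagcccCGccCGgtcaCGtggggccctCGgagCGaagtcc
The Lrp2 window held 18 CG dinucleotides, the Cubn window 2 and the Amn window 11, where the median over 32851 such windows was 6. Whether CG content has a part in the RNA values was not tested. Both strands were searched for GTTAAT (a homeodomain half-site), AGGTCA (a nuclear receptor half-site), TGANTCA (the AP-1 site) and CACGTG (an E-box). Of all windows, 6.43% held the first, 14.0% the second, 6.75% the third and 6.02% the last. None of the 4 was found in the Lrp2 or Cubn window, CACGTG was found in the Amn window, and GTTAAT in 1 of the 2 windows of Dab2. No match says only that these letters are not in this window.

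Dab2 encodes the clathrin adaptor that binds the cytoplasmic tail of megalin, and macrophages and other cells use it too. It had 252, 244, 285 and 317 CPM in the FGF23 variant libraries. The mCherry libraries had 498, 376, 199 and 476 CPM, and the NC libraries 335, 499, 569.8 and 571 CPM. The FGF23 variant libraries lay below every NC library, while mCherry library 3 was lower than all other libraries of the series and the rest of its group overlapped with NC. Dab2 fell 1.78-fold in the FGF23 variant group against NC (log2 -0.83 ± 0.17, adjusted p = 0.00232), and by less with library totals alone (log2 -0.50, adjusted p = 0.0290) and on FPKM (log2 -0.47, adjusted p = 0.0424 by limma). It did not pass in the mCherry group against NC (log2 -0.33 ± 0.27, adjusted p = 0.334) or between the FGF23 variant and mCherry groups (log2 -0.49 ± 0.24, adjusted p = 0.168). Without mCherry library 3 the FGF23 variant group was lower than mCherry (log2 -0.71, adjusted p = 0.00942 by edgeR). The 10 macrophage and monocyte markers summed to 113 to 159.7 CPM in the FGF23 variant group, 141 to 241 in the mCherry group and 119 to 160.5 in NC, none of them at 0 throughout a group, and their part in the Dab2 values was not tested.

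Lrpap1 encodes the receptor-associated protein, the chaperone that keeps ligands off megalin while it is folded in the endoplasmic reticulum. It had 233, 158, 160.3 and 192 CPM in the FGF23 variant libraries. The mCherry libraries had 147, 153, 135 and 139.9 CPM, and the NC libraries 637, 591, 558 and 553 CPM. The groups did not overlap, although FGF23 variant library 2 and mCherry library 2 lay within a few CPM of each other. Lrpap1 fell 4.0-fold in the mCherry group against NC (log2 -2.0 ± 0.10, adjusted p = 1.39e-07) and 3.10-fold in the FGF23 variant group against NC (log2 -1.63 ± 0.13, adjusted p = 6.43e-06). Against mCherry it was 1.29-fold higher with the FGF23 variant (log2 0.37 ± 0.13) and did not pass (edgeR adjusted p = 0.0605). It passed with DESeq2 (adjusted p = 0.0398), with all 12 libraries in 1 edgeR fit (0.0360), with library totals alone (0.0104), with limma on log2(FPKM + 1) (0.0125), and without FGF23 variant library 3 (0.0462). Over all its alternatives the adjusted p was 0.0104 to 0.222.

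Clcn5 encodes ClC-5, the exchanger of early endosomes, and Ocrl a phosphatase of endosomal membranes and coated pits. Loss of either gene in humans causes a proximal tubule disease with low-molecular-weight proteinuria, Dent disease or Lowe syndrome. Clcn5 had 90.3, 71.6, 76.6 and 99.2 CPM in the FGF23 variant libraries, 84.5, 72.1, 67.7 and 87.7 CPM in the mCherry libraries and 78.5, 92.3, 97.6 and 104 CPM in NC. Ocrl had 22.0, 22.9, 22.7 and 22.3 CPM in the FGF23 variant libraries, 24.6, 19.8, 21.4 and 21.1 CPM in the mCherry libraries and 23.0, 25.9, 30.0 and 23.8 CPM in NC. The groups of Clcn5 overlapped in every comparison, and those of Ocrl in all but the FGF23 variant group against NC, where the nearest libraries had 22.9 CPM with the FGF23 variant and 23.0 CPM in NC.

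Neither gene passed in any comparison. For Clcn5 the log2 fold change was 0.12 ± 0.13 in the FGF23 variant group against mCherry (adjusted p = 0.542), -0.23 ± 0.12 in the mCherry group against NC (0.128) and -0.12 ± 0.12 in the FGF23 variant group against NC (0.471). For Ocrl it was 0.05 ± 0.10 (adjusted p = 0.744), -0.22 ± 0.12 (0.142) and -0.17 ± 0.10 (0.180) in the same comparisons. The last of these turned to 0.16 with library totals alone, and that of Clcn5 to 0.21. A p that misses the threshold does not show that the levels were equal.

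Rab11a encodes the GTPase of the recycling endosome, which returns megalin to the apical membrane and serves many other cargoes in most cells. It had 88.7, 109, 120.1 and 94.1 CPM in the FGF23 variant libraries. The mCherry libraries had 159, 199.6, 170.4 and 169 CPM, and the NC libraries 89.1, 84.2, 84.1 and 83.8 CPM. Every mCherry library lay above all other libraries, while the FGF23 variant group overlapped with NC through its library 1. Rab11a rose 2.08-fold in the mCherry group against NC (log2 1.06 ± 0.10, adjusted p = 8.26e-06) and was 1.69-fold lower in the FGF23 variant group than in mCherry (log2 -0.76 ± 0.12, adjusted p = 0.00262). In the FGF23 variant group it was 1.22-fold higher than in NC (log2 0.29 ± 0.10, adjusted p = 0.0373), a call that was lost in 1 fit of all 12 libraries (adjusted p = 0.0542) and without FGF23 variant library 2 (0.0933) or 3 (0.0998) or NC library 2 (0.0909), 3 (0.0804) or 4 (0.0888). With library totals alone that difference was larger, log2 0.62 (adjusted p = 3.80e-04).

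The libraries of the FGF23 variant and mCherry groups did not overlap for 4 of the 8 genes (Lrp2, Cubn, Lrpap1 and Rab11a), where 28.4% of all genes tested did not overlap, 14.5% with the FGF23 variant higher and 13.9% with it lower. Those of the mCherry group and NC did not overlap for 5 (Lrp2, Cubn, Amn, Lrpap1 and Rab11a), where the share over all genes was 51.5%, 25.5% higher and 26.0% lower in the mCherry group. Those of the FGF23 variant group and NC did not overlap for 6 (Lrp2, Cubn, Amn, Dab2, Lrpap1 and Ocrl), all of them lower with the FGF23 variant, where it was 41.6%, 20.4% higher and 21.1% lower.

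**Figure D2:**
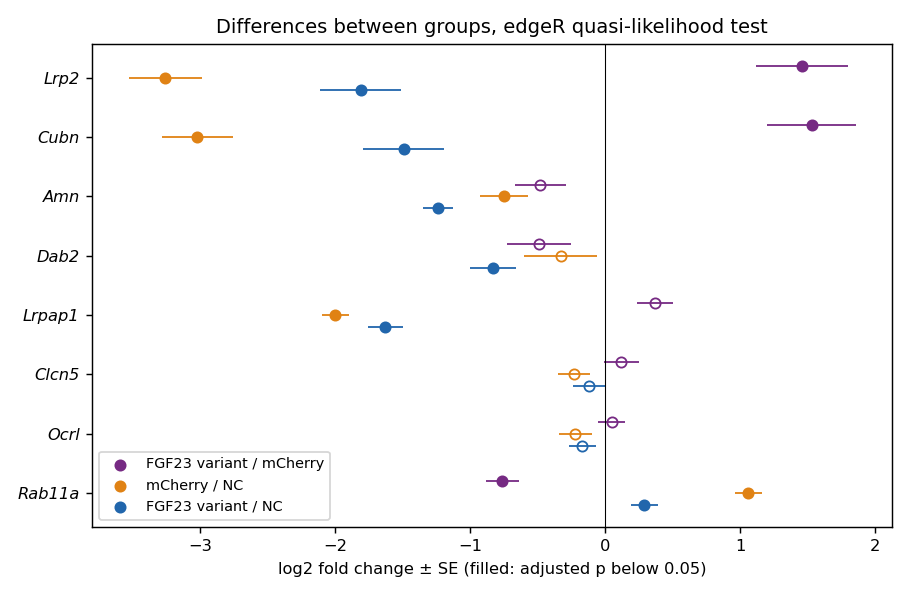
Log2 fold change of each gene (horizontal axis, ± SE) in the 3 comparisons, filled where the adjusted p was below 0.05. Lrp2 and Cubn lie at 1.46 and 1.53 for the FGF23 variant against mCherry and at -3.26 and -3.02 for mCherry against NC, while Clcn5 and Ocrl lie close to 0 and unfilled in all 3.

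Because the genes did not move by like amounts, ratios of their CPM were taken within each library. In the gene-to-gene ratios the scaling between libraries cancels. It does not cancel fully in the ratios to the proximal tubule markers, where 1 was added to the CPM of each marker. There were 6 ratios in 3 comparisons, tested with an exact two-sided permutation test and adjusted over the 18 tests. The smallest p that 4 against 4 libraries allow is 0.0286, which here became 0.0396 after adjustment. That adjusted value is below 0.05 only because many of the 18 tests reached the smallest p. The ratios share genes and libraries and restate the unlike fold changes given above, so they are not separate support. The values are ratios of counts, not of molecules, since gene length differs, and only their change between groups is compared.

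The ratio of Dab2 to Lrp2 was 0.333, 0.780, 0.929 and 0.500 in libraries 1, 2, 3 and 5 of the FGF23 variant group, 2.72, 2.00, 1.88 and 1.87 in the mCherry libraries and 0.253, 0.295, 0.288 and 0.267 in NC. The groups did not overlap, with NC lowest and mCherry highest. On the log2 scale it was -1.83 in the FGF23 variant group relative to mCherry, 2.92 in the mCherry group relative to NC and 1.10 in the FGF23 variant group relative to NC (adjusted p = 0.0396 each, exact permutation test). Dab2 RNA was thus higher relative to Lrp2 RNA in both injured groups than in NC, although Dab2 itself was not higher in either. In the mCherry group against NC, Lrp2 changed by log2 -3.26 and Dab2 by -0.33, which did not pass. In the FGF23 variant group against NC both were lower, by log2 -1.81 and -0.83.

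The ratio of Amn to Cubn, the partner to its receptor, was 0.304, 0.515, 0.562 and 0.222 in the FGF23 variant libraries, 1.08, 1.96, 1.94 and 1.01 in the mCherry libraries and 0.410, 0.300, 0.284 and 0.226 in NC. The mCherry libraries lay above all others, and the FGF23 variant libraries overlapped with NC. The log2 ratio was -1.93 in the FGF23 variant group relative to mCherry and 2.26 in the mCherry group relative to NC (adjusted p = 0.0396 each, exact permutation test). The difference of 0.33 between the FGF23 variant group and NC did not pass (adjusted p = 0.450, exact permutation test).

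The ratio of Lrpap1 to Lrp2, the chaperone to its receptor, was 0.307, 0.507, 0.523 and 0.303 in the FGF23 variant libraries, 0.805, 0.818, 1.27 and 0.549 in the mCherry libraries and 0.480, 0.349, 0.282 and 0.259 in NC. It was thus lower in each FGF23 variant library than in each mCherry library. The log2 difference was -1.06 between these groups and 1.31 between mCherry and NC (adjusted p = 0.0396 each, exact permutation test), and 0.25 between the FGF23 variant group and NC, which did not pass (adjusted p = 0.450, exact permutation test).

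The ratio of Cubn to Lrp2 differed by 0.33 or less on the log2 scale in all 3 comparisons. It was 0.293, 0.299, 0.352 and 0.357 in the FGF23 variant libraries, 0.338, 0.310, 0.303 and 0.285 in the mCherry libraries and 0.243, 0.269, 0.252 and 0.269 in NC. Both injured groups lay above every NC library and overlapped with each other. The log2 difference from NC was 0.33 in the FGF23 variant group and 0.26 in the mCherry group (adjusted p = 0.0396 each, exact permutation test), and that between the injured groups, 0.07, did not pass (adjusted p = 0.484, exact permutation test).

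Lrp2 and Cubn were also set against the mean log2(CPM + 1) of the 22 proximal tubule markers in the same library. For Lrp2 the log2 difference was 1.37 ± 0.16 in the FGF23 variant group, 0.69 ± 0.49 in the mCherry group and 0.72 ± 0.18 in NC (SD, n = 4 each). For Cubn it was -0.25 ± 0.22 in the FGF23 variant group, -1.01 ± 0.44 in the mCherry group and -1.23 ± 0.21 in NC. In the FGF23 variant group both receptors were thus higher relative to this marker mean than in mCherry, by 0.68 for Lrp2 and 0.75 for Cubn. Relative to NC they were higher by 0.65 and 0.98 (adjusted p = 0.0396 for each of the differences, exact permutation test). The markers were themselves divided, 8 higher and 2 lower with the FGF23 variant than with mCherry, so their mean does not stand for each marker. Some of the markers rose well above it. Hao2 made up 0.108% of the marker CPM sum in the mCherry group and 2.79% in the FGF23 variant group, and G6pc 0.0444% and 0.809%. The shares of Kap, Acsm2 and Slc22a30 were smaller in the FGF23 variant group, and Kap alone fell from 67.3% to 20.5%. The receptors' excess over the mean is therefore not shown to be particular to them, and how many other proximal tubule genes gained as much was not tested. With the median of the markers in place of their mean, the Lrp2 difference from mCherry was 1.03. Between the mCherry group and NC the differences of -0.03 for Lrp2 and 0.22 for Cubn did not pass (adjusted p = 0.914 and 0.450, exact permutation test), and that for Cubn turned to -0.11 with the median of the markers in place of the mean.

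**Figure D3:**
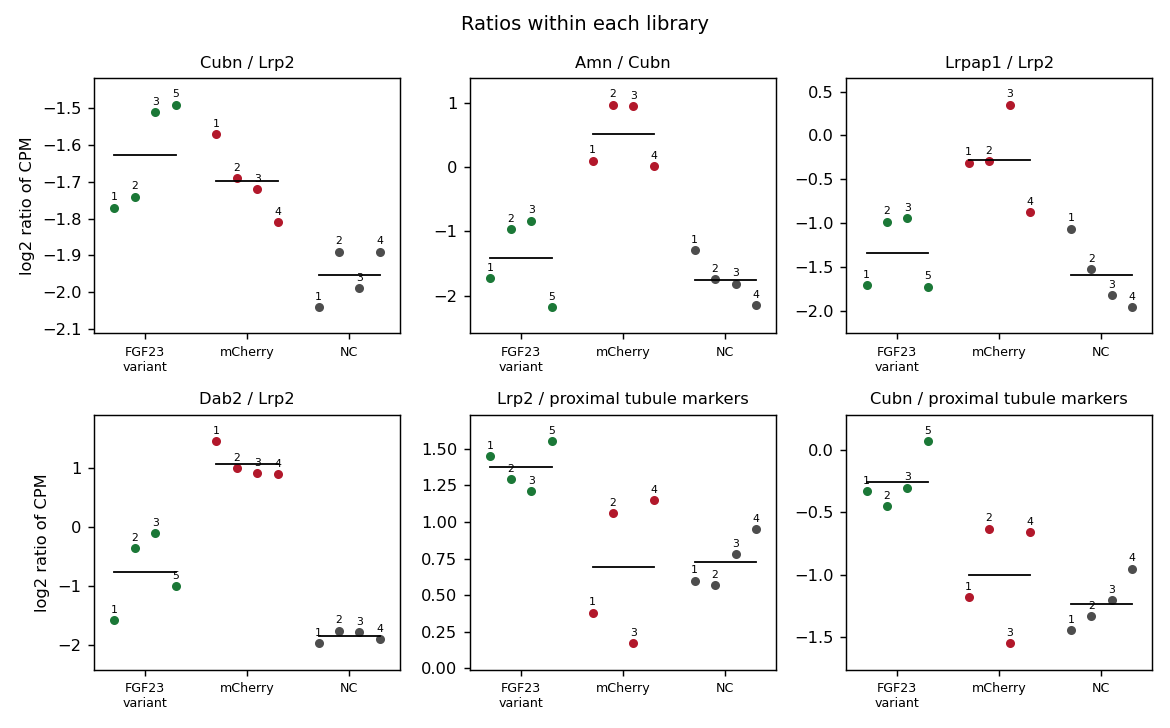
Log2 ratio of CPM (vertical axes, each with its own range) in every library by group, with library numbers and a bar at the mean (n = 4). Dab2 / Lrp2, Amn / Cubn and Lrpap1 / Lrp2 are highest in the mCherry group, and Lrp2 and Cubn relative to the mean of the proximal tubule markers are highest in the FGF23 variant group.

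Levels of different genes were compared per length with the authors' deposited FPKM, which are scaled to library totals without TMM factors. In the FGF23 variant group the order was Lrpap1 (47.2 ± 9.16 FPKM, SD, n = 4), Dab2 (39.1 ± 5.00), Rab11a (35.9 ± 4.80), Amn (32.1 ± 5.21), Lrp2 (31.5 ± 14.5), Cubn (11.4 ± 5.10), Clcn5 (7.71 ± 1.22) and Ocrl (2.47 ± 0.0287). The first 5 overlapped with their neighbours in that order, as did Cubn and Clcn5. In the mCherry group the order was Rab11a (52.5 ± 2.62 FPKM), Dab2 (47.6 ± 17.4), Amn (38.2 ± 8.83), Lrpap1 (31.5 ± 1.03), Lrp2 (9.89 ± 3.44), Clcn5 (6.17 ± 0.954), Cubn (3.39 ± 1.07) and Ocrl (2.07 ± 0.271). There the first 4 overlapped with their neighbours, Lrp2 with Clcn5 and Cubn with Ocrl. In NC the order was Lrpap1 (117 ± 8.16 FPKM), Lrp2 (87.8 ± 17.1), Amn (60.2 ± 3.31), Dab2 (55.4 ± 12.4), Cubn (25.5 ± 5.70), Rab11a (23.4 ± 0.738), Clcn5 (6.68 ± 0.758) and Ocrl (2.23 ± 0.298). Megalin RNA was thus the second per length in NC and the fifth in both injured groups. In NC, Lrpap1 was above Lrp2 in every library, Amn overlapped with Dab2, and Cubn with Rab11a.

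By the root mean square difference of log2(CPM + 1), each gene centred on its own mean over the 12 libraries, the pattern closest to Lrp2 among 11043 genes was that of Cubn (0.175). The next were St8sia1 (0.231), a sialyltransferase gene, Sucnr1 (0.231), the succinate receptor gene, Gcnt1 (0.251), a glycosyltransferase gene, and Anpep (0.263), the gene of the brush border aminopeptidase N. Anpep, for instance, had 49.7 ± 15.9 CPM in the FGF23 variant group, 20.5 ± 5.87 CPM in the mCherry group and 178 ± 25.8 CPM in NC (SD, n = 4 each). Among the 8 genes, Lrpap1 ranked 311, Amn 1820, Dab2 2772, Clcn5 3262, Ocrl 3955 and Rab11a 9780. These ranks describe the 12 libraries, which share the same 3 groups.

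Other genes of the uptake route are given by list, for the FGF23 variant group against mCherry first. Over all genes tested, 23.1% passed in that comparison, 11.7% higher and 11.4% lower. In the mCherry group against NC 53.1% passed, 27.2% higher and 26.0% lower. The counts of this list and of those that follow stand beside these shares, and no list was tested against them. Of 12 tested genes of the lipoprotein receptor family, 2 were higher and 0 lower, with a median log2 change of 0.33. They were Lrp4 (log2 0.92 ± 0.27, adjusted p = 0.0327), a receptor of neuromuscular and bone tissue, and Lrp6 (log2 0.42 ± 0.09, adjusted p = 0.0116), a Wnt co-receptor. In the mCherry group against NC 1 was higher and 6 lower (median -0.37). Scaled by library totals alone, these counts became 6 higher and 0 lower (median 0.54), and 3 higher and 5 lower (median -0.24). Lrp8, the apolipoprotein E receptor 2, rose to 15.2 ± 3.48 CPM in the mCherry group, against 1.65 ± 0.318 CPM in NC (log2 3.23 ± 0.22), and averaged 17.1 ± 2.76 CPM with the FGF23 variant.

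Of 25 genes of the clathrin coat and its adaptors, 1 was higher and 6 lower in the FGF23 variant group than in mCherry (median log2 change -0.03), and 9 were higher and 4 lower in the mCherry group than in NC (median 0.14). With library totals alone the first of these counts turned to 7 higher and 5 lower, with a median of 0.17. Bin1, a membrane-bending protein, had 40.9 ± 5.40 CPM in the FGF23 variant group, 80.6 ± 8.12 in the mCherry group and 22.2 ± 0.688 in NC, and passed in all 3 comparisons. Ap2s1, a subunit of the AP-2 adaptor, was lower with the FGF23 variant than with mCherry (log2 -0.77 ± 0.18) and higher in mCherry than in NC (log2 1.06 ± 0.18). Myo6, the motor that moves coated vesicles inward, was lower in the mCherry group than in NC (177 ± 21.5 against 345 ± 12.5 CPM, log2 -0.94 ± 0.11).

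Of 29 genes of early and recycling endosomes, 6 were higher and 3 lower in the FGF23 variant group than in mCherry (median log2 change 0.07), and 6 were higher and 13 lower in the mCherry group than in NC (median -0.23). Effectors that bind Rab11 moved in both directions. Rab11fip3 had 199.6 ± 32.7 CPM in the FGF23 variant group, 104 ± 23.5 in the mCherry group and 458 ± 39.8 in NC (log2 0.94 ± 0.17 for the FGF23 variant against mCherry and -2.12 ± 0.16 for mCherry against NC). Rab11fip1 had 19.2 ± 0.893 CPM in the FGF23 variant group, 28.3 ± 5.97 in the mCherry group and 16.6 ± 1.53 in NC (log2 -0.56 ± 0.14 and 0.79 ± 0.14). With library totals alone, 8 genes of the list were higher and 0 lower in the FGF23 variant group than in mCherry, so the lower call of Rab11fip1 was lost, and in the mCherry group against NC 7 were higher and 8 lower (median -0.10). Inpp5b, the close relative of Ocrl, was higher with the FGF23 variant than with mCherry (62.4 ± 7.56 against 34.8 ± 5.40 CPM, log2 0.85 ± 0.13, adjusted p = 0.00249), whereas Ocrl did not pass.

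Of 26 genes of endosomal acidification, 6 were higher and 5 lower in the FGF23 variant group than in mCherry (median log2 change -0.11), and 7 were higher and 8 lower in the mCherry group than in NC (median 0.15). With library totals alone these counts became 10 higher and 2 lower (median 0.10), and 13 higher and 8 lower (median 0.27). Slc9a3, the sodium-proton exchanger NHE3 of the brush border, had 95.0 ± 8.07 CPM in the FGF23 variant group, 42.2 ± 8.78 in the mCherry group and 161 ± 27.5 in NC. Atp6v0a1, a membrane subunit of the V-ATPase proton pump, had 71.5 ± 3.43, 133 ± 9.30 and 61.7 ± 7.23 CPM in the same groups. Atp6v1b1, the pump subunit of acid-secreting intercalated cells, had 71.0 ± 7.00, 35.6 ± 5.41 and 87.9 ± 16.4 CPM.

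Of 19 lysosomal genes, 2 were higher and 5 lower in the FGF23 variant group than in mCherry (median log2 change -0.09), and 7 were higher and 7 lower in the mCherry group than in NC (median -0.13). The first of these counts turned, with library totals alone, to 5 higher and 1 lower (median 0.12). The protease gene Ctsl had 625 ± 93.3 CPM in the FGF23 variant group, 1374 ± 317 in the mCherry group and 465 ± 30.8 in NC, with log2 -1.13 ± 0.18 for the FGF23 variant against mCherry and 1.58 ± 0.18 for mCherry against NC, both of which passed. Ctsd, another lysosomal protease gene, rose to 2726 ± 246 CPM in the mCherry group, against 713 ± 35.6 in NC (log2 1.95 ± 0.11). Of the 8 genes of the secretases and sheddases that can cut megalin, 0 were higher and 3 lower in the FGF23 variant group than in mCherry, Psenen by log2 -0.57 ± 0.17 and Psen2 by log2 -0.49 ± 0.11, and 3 were higher and 2 lower in the mCherry group than in NC. With library totals alone, 3 genes of this list were higher and 0 lower in the FGF23 variant group than in mCherry, so that direction rests on the scaling.

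Of 11 transcription factors of the proximal tubule, 6 were higher and 0 lower in the FGF23 variant group than in mCherry (median log2 change 0.50), and 0 were higher and 9 lower in the mCherry group than in NC (median -1.88). Ppara, a regulator of fatty acid oxidation, had 16.6 ± 8.27 CPM in the FGF23 variant group, 4.61 ± 1.30 in the mCherry group and 23.3 ± 8.45 in NC. Vdr, the vitamin D receptor, was higher with the FGF23 variant than with mCherry (175 ± 47.3 against 64.5 ± 2.36 CPM, log2 1.44 ± 0.18, adjusted p = 8.59e-04).

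Of 17 tested genes that encode ligands of the receptors, 6 were higher and 4 lower in the FGF23 variant group than in mCherry (median log2 change 0.49), and 3 were higher and 5 lower in the mCherry group than in NC (median 0.03). These counts became, with library totals alone, 7 higher and 2 lower (median 0.69), and 5 higher and 4 lower (median 0.14). Gc, the vitamin D-binding protein that megalin takes up, had 139 ± 28.6 CPM in the FGF23 variant group, 24.6 ± 4.88 in the mCherry group and 12.3 ± 2.27 in NC (log2 2.51 ± 0.19 for the FGF23 variant against mCherry, adjusted p = 7.96e-05). Ttr, transthyretin, had 78.4 ± 30.0, 12.6 ± 5.15 and 129 ± 18.7 CPM in the same groups. Tcn2, the carrier of vitamin B12, had 502 ± 101, 349 ± 45.4 and 1611 ± 197 CPM. Lcn2, a ligand of megalin and an injury marker, had 284 ± 180.2, 1276 ± 464 and 2.64 ± 1.49 CPM. These are RNAs of the kidney and say nothing of the protein filtered from blood.

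**Figure D4:**
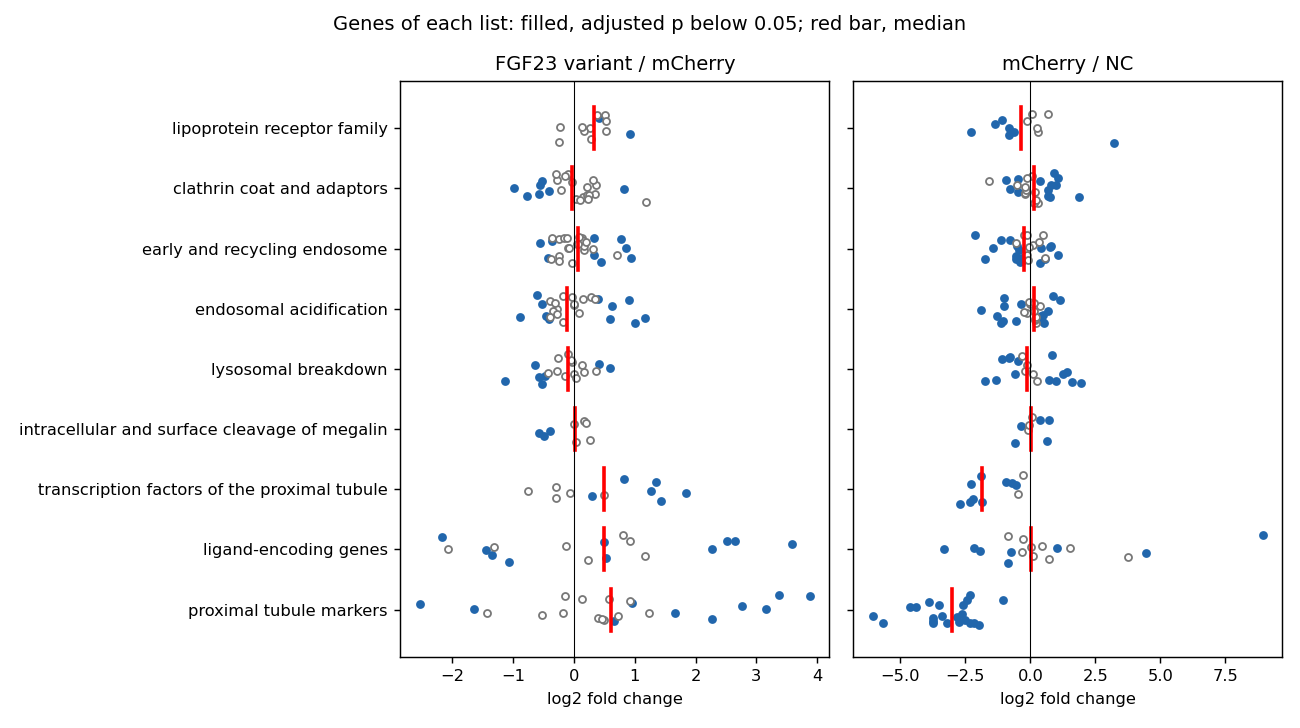
Log2 fold change (horizontal axes) of every tested gene of each list, for the FGF23 variant group against mCherry (left) and mCherry against NC (right), filled where the adjusted p was below 0.05, with the median of the list as a red bar. The median of the proximal tubule markers is 0.61 on the left and -3.01 on the right. Those of the clathrin, acidification and lysosome lists lie close to 0 on both sides. The median of the early and recycling endosome list is 0.07 on the left and -0.23 on the right.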

How the data were processed

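Whole mouse kidney RNA was measured in 12 poly(A) libraries, and the authors deposited counts and FPKM per gene, per the file headers. Per the submitters' processing notes, fastp, StringTie and edgeR were used on the GRCm39 build. The aligner, annotation and tool versions are not given in the sources that were used. The count 4 occurred 11995 times, against 5847 times for 3 and 3638 for 5, so low counts are not plain read tallies. All 8 genes lie far above that range. Of 32047 gene IDs, 31942 had a symbol, and every sample column matched a label.

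Counts were tested with edgeR 4.0.16 in R 4.3.3 (TMM factors, filterByExpr, glmQLFit and glmQLFTest), each comparison on its own 8 libraries with no block, with Benjamini-Hochberg adjustment over all genes at 0.05. The SE is the log2 fold change divided by the root of F. CPM values use TMM factors over all 12 libraries. Ratios used log2 CPM and an exact two-sided permutation test. Depth was 55324078 to 70638283 counts per library, and no 2 libraries of a group agreed within sampling noise (chi-square per degree of freedom 31.6 to 136). Alternatives were RLE factors, library totals, no filter, DESeq2 1.42.0, limma 3.58.1 on log2(FPKM + 1), 1 fit of all libraries, the replicate number as a block, and leaving out each library. The main edgeR fit of each comparison, but none of the alternatives, was also run on simulated counts in which 200 genes carried known changes. Of genes changed 1.5-fold, 14.1% were recovered for the FGF23 variant against mCherry. It was 14.9% for mCherry against NC and 21.7% for the FGF23 variant against NC. Of genes changed 2-fold, 65.5%, 51.8% and 66.7% were recovered in the same comparisons, and of genes changed 4-fold 87.0%, 76.7% and 75.9%. Small changes were thus often missed in the simulated counts. There, only 200 genes changed, drawn from all that passed the filter, weakly expressed ones included. In the data 4347 to 9947 genes passed per comparison, so the adjusted threshold was not the same. These rates therefore do not give the share missed in the data or among the 8 genes.

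The 8 genes and the gene lists were chosen with earlier results of these data known. Of 259 list entries, 257 matched. Named genes are the 8, up to 2 genes called higher and 2 called lower per pathway list and comparison with the largest change among those with a mean of at least 5 CPM, and the 5 genes most like Lrp2. Some genes that the rule allows are given only in the counts. Promoter windows came from RefSeq.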

Additional observations from a re-analysis of the deposited data

Results flagged for a closer look

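Of 42 sets of 4 values checked for a sample far from the others, by Dixon's test at 95%, 1 stood out: Rab11a had 89.1 CPM in NC library 1, against 83.8 to 84.2 CPM in the other 3 NC libraries (a gap of 0.936 of the range, above the critical value for 4 samples). Chance alone flags about 1 set in 20. The Rab11a difference between the mCherry group and NC passed without this library, and so did that between the FGF23 variant group and NC.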

How the results depend on the processing

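All 5 calls among the 8 genes for the mCherry group against NC held under each of the 15 alternatives, as did Lrp2, Cubn and Rab11a for the FGF23 variant against mCherry and the 5 lower calls for the FGF23 variant against NC under each of 16. For the FGF23 variant group against mCherry, the count of 4347 genes over the table was 2410 to 4259 with 1 library left out. The labels do not say that a replicate number marks a shared source. Between the FGF23 variant and mCherry groups, deviations of same-numbered libraries from their group means had r = 0.0813 to 0.231. FGF23 variant libraries 1 and 3 were closest to the mCherry library of their own number, and library 2 was not. Against NC, r was -0.225 to -0.0993 for the FGF23 variant group and -0.389 to 0.101 for the mCherry group. No library there was closest to the NC library of its own number. With the replicate number as a block, on the 6 libraries with shared numbers, 1710 genes passed for the FGF23 variant against mCherry, beside 1688 on those libraries with no pairing, an alternative added after seeing the data. For the FGF23 variant against NC, 4715 genes passed with the block and 6334 without the pairing, beside 8035 on all 8 libraries. The Rab11a call was lost in both (edgeR adjusted p = 0.162 and 0.0816). Against NC, the FGF23 variant group turned to higher for Clcn5 (log2 0.21 with library totals, 0.18 on FPKM) and Ocrl (0.16 and 0.11), none of which passed. The ratio of Cubn to the proximal tubule markers in the mCherry group relative to NC turned to -0.11 with the median of the markers. The log2 ratio of Lrp2 to the markers for the FGF23 variant against mCherry was 0.68, and 1.03 with that median. The cause of these shifts was not tested. With 3 libraries against 4, the exact permutation test of a ratio cannot go below 0.0571, so ratios without a library carry no test.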
